A study of Mus musculus with 8 samples.

Results

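The NF-κB subunits and their inhibitors were measured in skeletal muscle with and without *Grsf1*. The group comprised 10 genes, namely 3 canonical subunits (*Nfkb1*, *Rela* and *Rel*), 2 noncanonical subunits (*Nfkb2* and *Relb*) and 5 inhibitors and atypical IκB proteins (*Nfkbia*, *Nfkbib*, *Nfkbie*, *Nfkbiz* and *Bcl3*). The genes were chosen by name, and every array probe whose RefSeq transcript belongs to one of them was taken, which gave 15 of 32994 named probes and 10 of 22911 named genes.

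RNA of a quadriceps muscle came from 3 Grsf1cKO and 3 WT male mice at 17 months of age, and its Cy3-labeled copies were read on Agilent 1-color arrays. The sample labels give the muscle as the vastus intermedius, whereas the paper gives the rectus femoris. Mouse 1 of each genotype has a repeat array, so that 6 mice are represented by 8 arrays. GRSF1 is an RNA-binding protein of mitochondria, and the comparison asks how its loss alters the RNA of aged muscle. The Grsf1cKO mice carry an allele that came from the European Mouse Mutant Archive as Grsf1tm1a in C57BL/6N-Atm1Brd mice. Its LacZ and Neo cassettes were taken out with FLPo, which left exons IV and V flanked by LoxP sites, and Myf5Cre then removed these exons. Since this Cre follows *Myf5*, a gene of muscle precursors, cells of the tissue outside that lineage can keep an intact *Grsf1*. Whether the WT mice carried a floxed allele or Cre, and whether they were littermates, is not given in the sources used here.

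NF-κB proteins act as dimers that bind DNA at κB sites. In the canonical pathway, IκB proteins hold dimers of *Rela*, *Rel* and *Nfkb1* products in the cytoplasm until the IKK complex marks the IκB for degradation. In the noncanonical pathway, receptors such as those encoded by *Ltbr*, *Cd40* and *Tnfrsf12a* stabilize the kinase encoded by *Map3k14*, after which the *Nfkb2* precursor is cut to a shorter form that enters the nucleus with RELB, and in skeletal muscle NF-κB activity is known for its place in inflammation, wasting and regeneration.

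*Grsf1* itself was examined first. Its probe read 12.15, 12.02 and 12.08 on the log2 scale in Grsf1cKO mice 1 to 3, against 14.30, 14.25 and 14.27 in WT mice 1 to 3. The Grsf1cKO mice all lay below the WT mice, and the log2 fold change of −2.19 (SE 0.0811) passed the test (limma, Benjamini-Hochberg adjusted *p* = 0.00328). With the replicate number as a block, the same log2 fold change had a limma adjusted *p* of 0.25, above the cut of 0.2. The sources used here do not give the position of this probe relative to exons IV and V. One array stands apart, since 88.9% of its spots were well above background on the repeat array of Grsf1cKO 1, compared with 66.3% to 73.1% on the other 7 arrays. Where the arrays of this mouse differ enough to alter a statement about a member, both readings are given.

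All 15 probes of the NF-κB subunits and inhibitors were well above background in all 6 mice. A probe was called where its fold change exceeded 1.5, its unadjusted *p* was under 0.01 and its Benjamini-Hochberg adjusted *p* was under 0.2. By limma, 0 of the 15 probes were called, beside 3 of 38888 probes over the whole array (0.00771%). At an unadjusted *p* under 0.05, 3 of the 15 were higher in Grsf1cKO (1.29% of all probes) and 0 were lower (2.96% of all probes). All Grsf1cKO mice lay above the WT mice on 3 of the 15 and below them on 1 (3.08% and 6.27% of the 38859 tested probes with a value in every mouse). The methods' *z*-test, which treats the spread of these mice as known, called 1 of the 15 when used with the fold cut above (0.975% of all probes). The methods cut by *z*-ratio and mean *z*-score instead and filter probes by variance first, and that filter was not applied here. The brightest *Nfkbiz* probe, lower in Grsf1cKO, had a smaller adjusted *p* in the *z*-test (0.0498) than *Nfkb2* (0.0697), and the second *Relb* probe also passed both *p* cuts, but neither passed the cut on fold or *z*-ratio. The probes at a *p* under 0.05 are both *Nfkb2* probes and the second *Relb* probe, that is, all of them belong to the noncanonical subunits. This set depended on the setting. With normexp background correction, *Nfkbie* and the second *Nfkbib* probe, both of inhibitors, also passed this cut. *Nfkbie* passed it with 75th percentile scaling too, and the second *Nfkbib* probe under several settings, among them first arrays only and slide 2 only. The second *Nfkb2* probe did not pass it without the detection filter or with the replicate number as a block. Neither this probe nor the second *Relb* probe passed it with the deposited *z*-scores or with slide 2 only. Whether noncanonical subunits differ from the other members was not tested. The Benjamini-Hochberg adjusted *p* from limma was between 0.996 and 0.998 for each of the 15. By sign alone, 12 of the 15 probe estimates were above 0 and 3 were below. Counted by the brightest probe, 2 of 3 canonical subunits, 2 of 2 noncanonical subunits and 4 of 5 inhibitors were above 0. Of all 17030 genes tested, by the brightest probe, 7239 were above 0 and 9791 below. These are bulk samples, in which fewer cells of a type and less RNA per cell cannot be told apart.

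**Figure D1:**
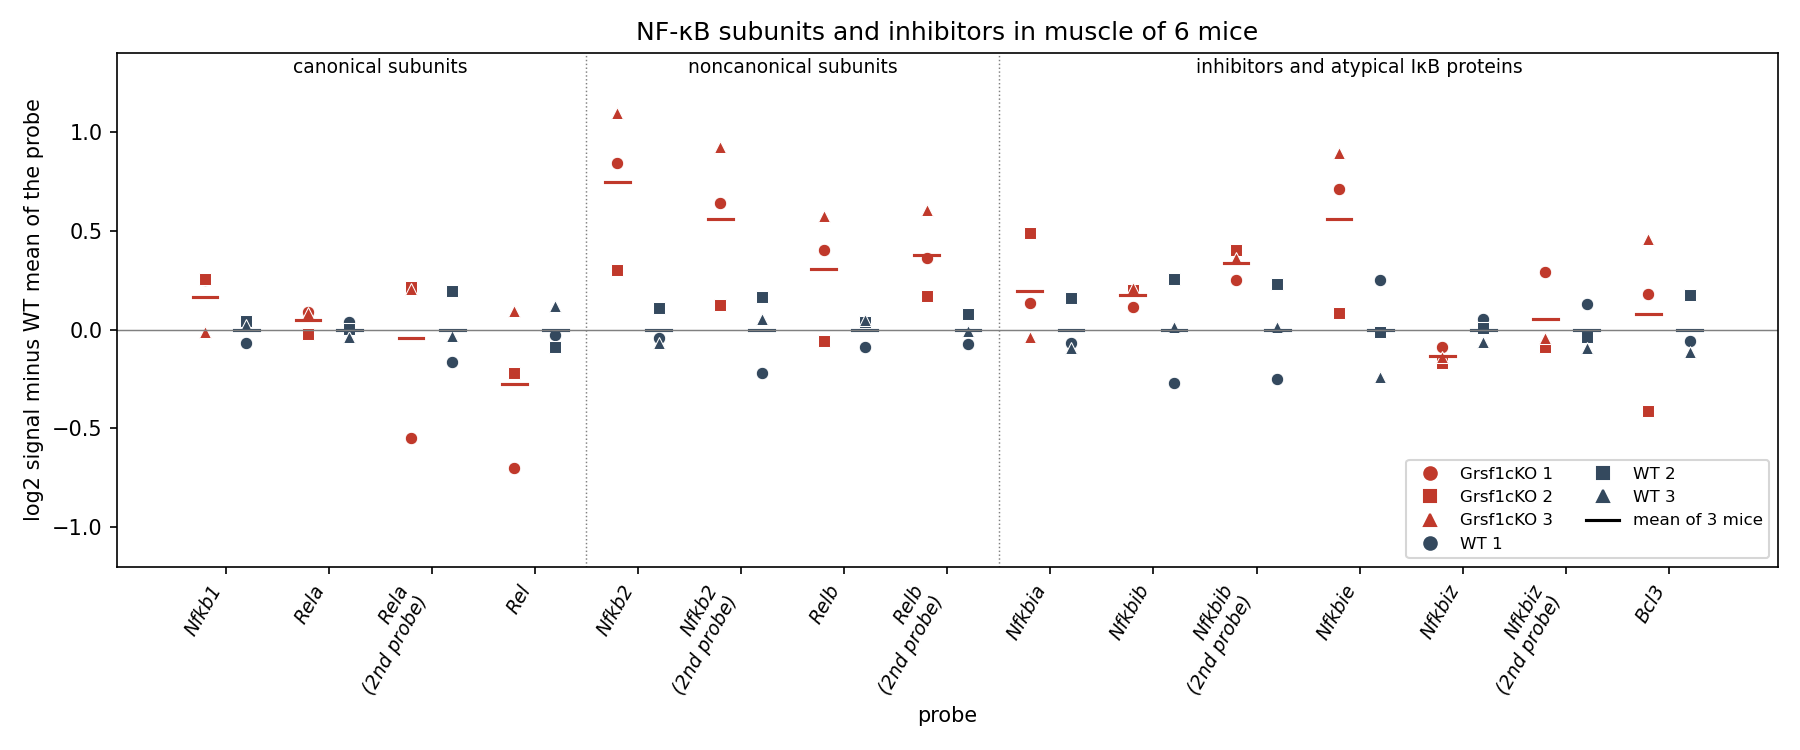
Log2 signal of each of the 15 probes in each of the 6 mice, relative to the WT mean of the same probe, with a bar for the mean of 3 mice. Grsf1cKO 1 (circles) and Grsf1cKO 3 (triangles) stand above the WT mice for both *Nfkb2* and both *Relb* probes, while Grsf1cKO 2 (squares) lies among the WT mice for the second *Nfkb2* probe (9.95) and the brightest *Relb* probe (11.59).

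*Nfkb2*, which encodes the precursor of the noncanonical pathway, had the largest estimate of the members. Its brightest probe read 12.29, 11.75 and 12.55 in Grsf1cKO mice 1 to 3 and 11.41, 11.56 and 11.38 in WT mice 1 to 3. All 3 Grsf1cKO mice lay above the WT mice, with Grsf1cKO 2 only slightly so. The means were 12.20 ± 0.41 and 11.45 ± 0.10 (SD, n = 3 each). The log2 fold change was 0.75, a fold of 1.68 (SE 0.211, 95% interval 0.23 to 1.26), which did not pass the test (limma, Benjamini-Hochberg adjusted *p* = 0.996). The unadjusted limma *p* was 0.0122, and a 2-sided exact permutation test gave *p* = 0.1, the smallest that 3 mice against 3 allow. The methods' *z*-test called this probe with the fold cut and, in an alternative chosen after seeing the data, with the *z*-ratio cut (Benjamini-Hochberg adjusted *p* = 0.0697, against 0.776 to 0.999 over the limma alternatives).

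The second *Nfkb2* probe read 10.46, 9.95 and 10.75 in Grsf1cKO mice 1 to 3 and 9.60, 9.99 and 9.88 in WT mice 1 to 3. Grsf1cKO 1 and Grsf1cKO 3 were again the highest mice, but Grsf1cKO 2 lay within the WT range, so that the genotypes overlap. Its log2 fold change was 0.56 (SE 0.225), with *p* = 0.2 in the exact permutation test. Both probes target the same transcript and had similar values over the mice (*r* = 0.962 over 6 mice, given as a description of likeness). For *Nfkb2* the arrays of Grsf1cKO 1 were close, at 12.34 on the first and 12.25 on the repeat.

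*Relb* encodes the partner with which processed *Nfkb2* enters the nucleus. Its brightest probe read 12.05, 11.59 and 12.23 in Grsf1cKO mice 1 to 3 and 11.56, 11.69 and 11.70 in WT mice 1 to 3. The same 2 Grsf1cKO mice were highest, and Grsf1cKO 2 lay within the WT range. The estimate was 0.31 (SE 0.175). It was 0.49 without Grsf1cKO 2 and 0.17 without Grsf1cKO 3. The second probe, of another *Relb* transcript, read 9.70, 9.51 and 9.95 in the Grsf1cKO mice and 9.27, 9.42 and 9.33 in the WT mice. Here the genotypes did not overlap, and the log2 fold change was 0.38 (SE 0.132), with *p* = 0.1 in the exact permutation test.

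No canonical probe was at an unadjusted limma *p* under 0.05 with all mice. Without Grsf1cKO 3, *Nfkb1* (higher in Grsf1cKO) and *Rel* (lower) passed that cut. *Rela* encodes the main activating subunit of canonical dimers. Its brightest probe read 13.82, 13.71 and 13.81 in Grsf1cKO mice 1 to 3 and 13.77, 13.73 and 13.69 in WT mice 1 to 3. The genotypes overlap, and the log2 fold change of 0.05 (SE 0.0818) has a 95% interval of −0.15 to 0.25, the narrowest of the canonical genes. The second *Rela* probe gave −0.04, and it turned above 0 under several settings, among them 75th percentile scaling (0.19). On that probe Grsf1cKO 1 read 6.12 on its first array and 5.12 on its repeat.

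*Nfkb1* encodes the precursor whose processed form pairs with RELA. It read 7.37, 7.37 and 7.11 in Grsf1cKO mice 1 to 3 and 7.05, 7.17 and 7.14 in WT mice 1 to 3. Grsf1cKO 3 lay within the WT range. The estimate was 0.17 (SE 0.107). It depended on the arrays used, since the repeat array of Grsf1cKO 1 read 7.86 where the first array read 6.88. Without that repeat array, an alternative chosen after seeing the data, the log2 fold change was 0.004. With first arrays only for both genotypes it was 0.057, and without Grsf1cKO 1 it was 0.12. *Rel* encodes c-Rel, a subunit best known from lymphoid cells, and read 5.71, 6.19 and 6.50 against 6.38, 6.32 and 6.53. Grsf1cKO 1 was the lowest mouse, with 6.24 on its first array and 5.18 on its repeat. For *Rel* the log2 fold change was −0.27 (SE 0.209). It was −0.10 without the repeat array, −0.06 without this mouse and −0.46 without Grsf1cKO 3.

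A score put the subunits side by side within each mouse, as the mean log2 signal of the brightest probes relative to the WT mean. The noncanonical score was 0.62, 0.12 and 0.84 in Grsf1cKO mice 1 to 3 and −0.07, 0.08 and −0.01 in WT mice 1 to 3. The canonical score was −0.12, 0.00 and 0.06 in the Grsf1cKO mice and lay between −0.02 and 0.03 in the WT mice. Noncanonical minus canonical was thus 0.74, 0.12 and 0.78 in the Grsf1cKO mice, against −0.05, 0.09 and −0.04 in the WT mice. All 3 Grsf1cKO mice were above the WT mice, but Grsf1cKO 2 exceeded WT 2 by little. The means were 0.55 ± 0.37 and 0.00 ± 0.08 (SD, n = 3 each). This score was not tested.

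**Figure D2:**
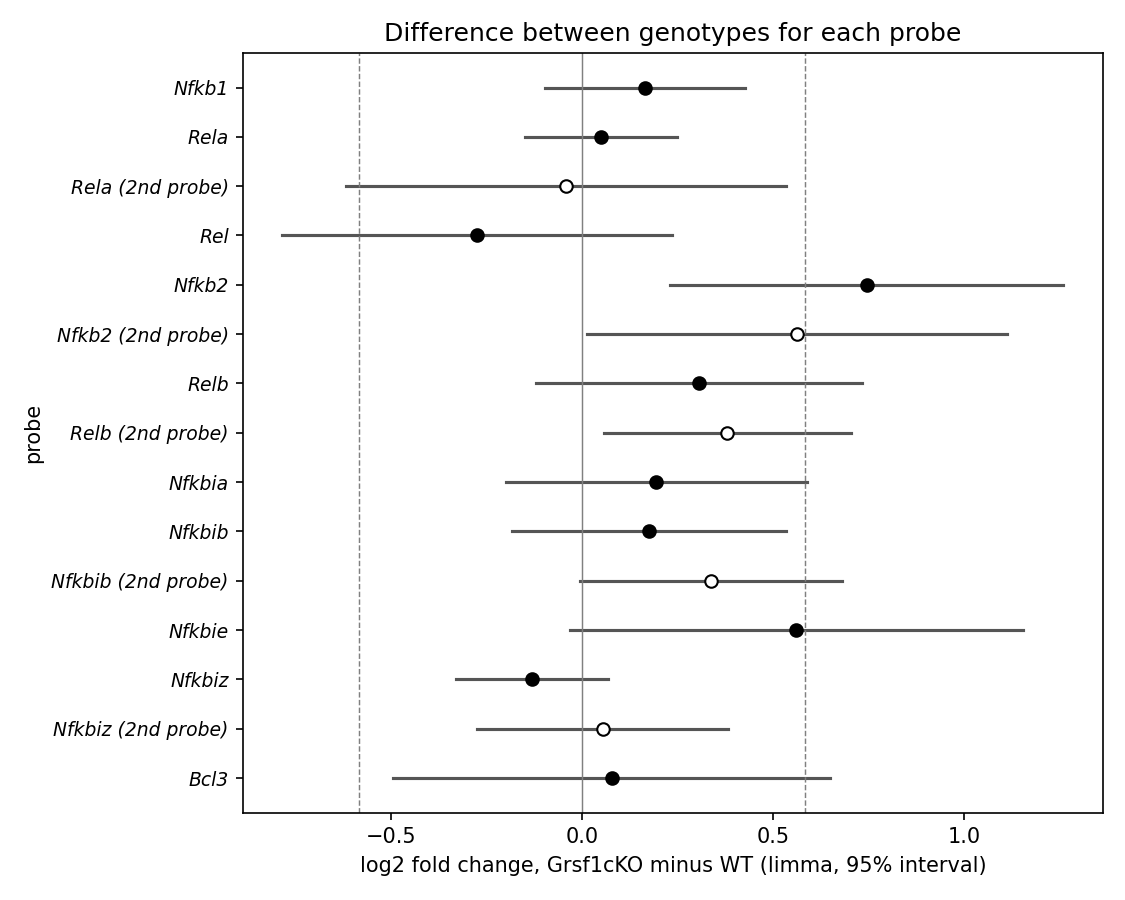
Log2 fold change of Grsf1cKO against WT for each of the 15 probes with its 95% limma interval, where filled points are the brightest probe of a gene, open points the second probe, and dashed lines a fold of 1.5. The intervals of both *Nfkb2* probes (0.23 to 1.26 and 0.01 to 1.11) and of the second *Relb* probe (0.06 to 0.70) lie above 0, and the others include 0.

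Among the inhibitors, the estimates ranged from −0.13 to 0.56. *Nfkbie* encodes IκBε, a cytoplasmic inhibitor of RELA and c-Rel dimers. It read 8.68, 8.05 and 8.86 in Grsf1cKO mice 1 to 3 and 8.22, 7.96 and 7.73 in WT mice 1 to 3. As with the second *Nfkb2* probe, Grsf1cKO 1 and Grsf1cKO 3 were the highest mice and Grsf1cKO 2 lay within the WT range. The log2 fold change was 0.56 (SE 0.243), with *p* = 0.2 in the exact permutation test.

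*Nfkbia* encodes IκBα, the main inhibitor that canonical signaling degrades and then induces. It read 13.56, 13.91 and 13.38 in Grsf1cKO mice 1 to 3 and 13.36, 13.58 and 13.33 in WT mice 1 to 3. Here Grsf1cKO 2 was the highest mouse and the other 2 Grsf1cKO mice lay within the WT range, an order unlike that of *Nfkb2*. Grsf1cKO 1 read 13.48 on its first array and 13.64 on its repeat, on either side of WT 2. The estimate of 0.19 (SE 0.161) was 0.05 without Grsf1cKO 2 and 0.31 without Grsf1cKO 3. *Nfkbib*, which encodes IκBβ, read 13.82, 13.90 and 13.91 against 13.43, 13.96 and 13.71. The Grsf1cKO mice were close together and within the WT range. The log2 fold change of 0.18 (SE 0.147) was 0.04 without WT 1, the lowest mouse, and 0.30 without WT 2, the highest. The second *Nfkbib* probe, of another transcript, read 9.70, 9.85 and 9.81 against 9.20, 9.68 and 9.46. It did not overlap between genotypes (log2 fold change 0.34, SE 0.140), but the estimate was 0.22 without WT 1, and the repeat array of Grsf1cKO 1 read 9.65, below WT 2.

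The remaining pair are atypical IκB proteins that act in the nucleus. *Nfkbiz* read 8.23, 8.15 and 8.18 in Grsf1cKO mice 1 to 3 and 8.37, 8.33 and 8.26 in WT mice 1 to 3. Of the 15 probes it was the only one on which all Grsf1cKO mice lay below the WT mice, with a log2 fold change of −0.13 (SE 0.0814). This separation rests on the repeat array of Grsf1cKO 1 (8.08), since the first array read 8.38, above all WT mice. The second *Nfkbiz* probe gave 0.05, with 7.09 on the first array of that mouse and 8.05 on its repeat. *Bcl3*, whose product binds dimers of processed *Nfkb1* or *Nfkb2*, read 9.75, 9.16 and 10.03 against 9.51, 9.74 and 9.45. Grsf1cKO 3 was the highest and Grsf1cKO 2 the lowest of all 6 mice. The estimate for *Bcl3* was 0.08 (SE 0.234), and it was −0.12 without Grsf1cKO 3 and 0.32 without Grsf1cKO 2.

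The mouse order recurred across members. Grsf1cKO 2 was the lowest of its genotype on 9 of the 15 probes (25.4% of those 38859 probes), and Grsf1cKO 3 the highest on 8 of the 15 (33.5%). Probes of a gene and genes of a pathway can share signal, so these counts are not independent. Over the 6 mice, Pearson's *r* with the brightest *Nfkb2* probe was 0.931 for *Relb*, 0.919 for *Nfkbie*, 0.800 for *Rela* and 0.653 for *Bcl3*. It was between −0.62 and 0.49 for *Nfkb1*, *Rel*, *Nfkbia*, *Nfkbib* and *Nfkbiz*. These values describe likeness only, and the difference between genotypes is part of each. Of 17020 genes with a value in every mouse, the 5 most like *Nfkb2* were *Cfap69* (0.996), *Mrpl17* (0.994), *Cxcl10* (0.990), *Armc5* (0.984) and *Arhgdia* (0.983). Their log2 fold changes differ in size, at 0.36, 0.12, 1.79, 0.07 and 0.09 in that order.

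The promoters of the members were read because several members share this mouse order. RefSeq promoter windows of 300 bases (250 before to 50 after each start, build GRCm38.p6) matched 7 of the 10 members by symbol. *Nfkb1*, *Relb* and *Nfkbiz* have no entry in the table used. The κB consensus, a degenerate motif of 10 bases, was searched on both strands with overlapping matches kept. It was present in 4.51% of all 32851 windows and 5.14% of 27025 gene symbols. Of the 7 members, 5 had a match (*Nfkb2*, *Rel*, *Nfkbia*, *Nfkbie* and *Bcl3*), while *Rela* and *Nfkbib* had none. All 3 *Nfkb2* windows, of which the last pair overlap, had one. A match is a description, not a site or a cause, and the members with a match include *Rel* and *Nfkbia*, whose order of the Grsf1cKO mice differs from that of *Nfkb2*. For *Rel* this difference rests on the repeat array of Grsf1cKO 1 (5.18). Its first array read 6.24, between Grsf1cKO 2 (6.19) and Grsf1cKO 3 (6.50), which is the order of *Nfkb2*. Shown 5′ to 3′ are the 160 bases before the start, with matches in capitals, for *Nfkb2* (first window, chr19:46304577-46304736, plus strand), *Nfkbie* (chr17:45555540-45555699, plus strand), *Nfkbia* (chr12:55492648-55492807, minus strand) and *Rel* (chr11:23770970-23771129, minus strand). *Rela* (chr19:5637381-5637540, plus strand) is shown as a member without a match, and *Cxcl10* (chr5:92348890-92349049, minus strand) as the chemokine gene whose values follow *Nfkb2*.
Nfkb2: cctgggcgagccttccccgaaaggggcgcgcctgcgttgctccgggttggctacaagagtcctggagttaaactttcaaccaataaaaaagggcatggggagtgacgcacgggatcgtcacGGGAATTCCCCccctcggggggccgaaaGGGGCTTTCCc
Nfkbie: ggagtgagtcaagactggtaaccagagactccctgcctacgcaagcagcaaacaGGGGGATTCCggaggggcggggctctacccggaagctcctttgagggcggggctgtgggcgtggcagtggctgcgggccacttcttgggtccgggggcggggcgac
Nfkbia: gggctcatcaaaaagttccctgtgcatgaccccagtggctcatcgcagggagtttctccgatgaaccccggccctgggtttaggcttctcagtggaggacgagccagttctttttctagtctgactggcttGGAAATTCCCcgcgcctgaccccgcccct
Rel: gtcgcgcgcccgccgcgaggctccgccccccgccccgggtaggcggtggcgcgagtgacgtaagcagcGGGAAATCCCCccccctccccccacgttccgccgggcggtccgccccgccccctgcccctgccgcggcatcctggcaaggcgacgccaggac
Rela: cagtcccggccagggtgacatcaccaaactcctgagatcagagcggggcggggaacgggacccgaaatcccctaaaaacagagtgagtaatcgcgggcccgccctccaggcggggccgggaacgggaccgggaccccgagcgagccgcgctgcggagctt
Cxcl10: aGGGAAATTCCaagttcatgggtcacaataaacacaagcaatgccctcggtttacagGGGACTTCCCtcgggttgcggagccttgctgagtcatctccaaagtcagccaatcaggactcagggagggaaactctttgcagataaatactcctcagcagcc

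In the *Nfkb2* stretch, the matches that overlap begin 39 and 38 bases before the start and another begins 11 bases before it. The *Nfkbie* match begins 106 bases before the start, the *Nfkbia* match 29 bases before it, and the *Rel* matches, which overlap, 92 and 91 bases before it. In *Bcl3* the match lies past the start and is not shown. *Nfkb2* with its matches had a log2 fold change of 0.75, *Nfkbie* 0.56, *Nfkbia* 0.19 and *Rel* −0.27. For *Rel* it was −0.10 without the repeat array of Grsf1cKO 1. Whether these members differ from each other was not tested. Of the NF-κB target genes described next, 9 of 23 with an entry had a match (39.1%).

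Other genes of the pathway were then counted by list, by the brightest probe of each gene, beside 17030 genes tested in all. Over all genes, 1.15% were higher and 2.28% lower at an unadjusted *p* under 0.05, with a median log2 fold change of −0.02. All Grsf1cKO mice lay above the WT mice on 533 of these 17030 genes and below them on 1041. Of the IKK complex and upstream kinases, which relay the signal, 14 of 14 genes were tested and 0 were at that *p* in either direction (limma, median 0.02). The largest estimates were *Ikbke* (0.37), *Tab2* (−0.17) and *Irak4* (0.15), all with overlapping genotypes. *Ikbke* was dim, and well above background in 3 Grsf1cKO mice but in only 2 WT mice. For *Ikbke*, Grsf1cKO 1 read 4.98 on its first array and 3.93 on its repeat. *Map3k14*, the kinase of the noncanonical pathway, was at 0.07, and its second probe at 0.10. Of the adaptors and ubiquitin enzymes, 16 of 16 were tested and again 0 were at that *p* (median 0.07). *Traf1* (0.43), *Birc3* (0.29) and *Otulin* (0.28) had the largest estimates, and all of them overlap, while *Sharpin* (0.14) did not. *Traf1* was high in Grsf1cKO 3 alone (9.07, against 7.75 and 7.65 in Grsf1cKO 1 and Grsf1cKO 2 and a WT mean of 7.73).

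Of the noncanonical ligands and receptors, 10 of 12 were tested, and *Cd40lg* and *Tnfsf11* were not well above background in any mouse. None reached a *p* under 0.05 by limma (0 higher, 0 lower, median 0.14). *Cd40*, a receptor that feeds the noncanonical pathway, read 6.59, 5.96 and 6.61 in Grsf1cKO mice 1 to 3 and 5.94, 5.99 and 5.90 in WT mice 1 to 3. Grsf1cKO 2 lay within the WT range (log2 fold change 0.44, SE 0.191). The high value of Grsf1cKO 1 rests on its repeat array (7.35), since its first array read 5.82, below the value of each WT mouse. The first array of WT 1 read 5.76 and its repeat 6.11. *Tnfsf14* (0.41) and *Lta* (0.32), both ligands of this pathway, had overlapping genotypes, and for *Lta* Grsf1cKO 1 read 6.44 on its first array and 8.12 on its repeat. *Tnfsf14* was well above background in 3 Grsf1cKO mice but in only 1 WT mouse.

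Of the canonical ligands and receptors, 10 of 12 were tested, with 0 higher and 1 lower (median −0.03). The lower gene was *Tnf*, a cytokine that triggers the canonical pathway. It read 7.78, 7.78 and 7.90 in the Grsf1cKO mice and 8.35, 8.67 and 8.08 in the WT mice. The genotypes did not overlap (log2 fold change −0.55, SE 0.160, limma Benjamini-Hochberg adjusted *p* = 0.996), but the second *Tnf* probe gave −0.06 with overlapping genotypes. *Tlr3* (−0.37, and −0.02 on its second probe) and *Tlr2* (0.33) also overlapped. On the brightest *Tlr3* probe Grsf1cKO 1 read 5.67 on its first array and 3.73 on its repeat. *Il1a* was not well above background in any mouse, and *Il1b* was so in 1 mouse of each genotype.

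Of 30 NF-κB target genes, 29 are on the array and 24 were tested, with 3 higher and 0 lower (median 0.12). *Cxcl10*, a chemokine that draws T cells, read 10.05, 8.94 and 11.08 in Grsf1cKO mice 1 to 3 and 8.16, 8.32 and 8.22 in WT mice 1 to 3. The Grsf1cKO mice stood above the WT mice in the same order as for *Nfkb2*, with a log2 fold change of 1.79 (SE 0.512, limma Benjamini-Hochberg adjusted *p* = 0.996). *Saa3*, an acute-phase protein, read 5.78, 5.75 and 6.09 against 5.36, 5.04 and 5.11. Its genotypes did not overlap (log2 fold change 0.70, SE 0.140), but this rests on the repeat array of Grsf1cKO 1 (6.75), since the first array read below all WT mice. *Vcam1*, an adhesion molecule, was the remaining gene (0.36, SE 0.135), but its second probe gave 0.03 with overlapping genotypes. *Ccl5* also had an estimate of 0.70, but its genotypes overlap. On *Cflar* (−0.20) and *Sod2* (−0.18), 2 of the 24, all Grsf1cKO mice lay below the WT mice, as they did on 1041 of all 17030 genes. *Cxcl10* was in the list because the study names it, so that its place there is no independent evidence of direction. *Ccl20*, *Csf2*, *Cxcl2*, *Cxcl5* and *Sele* were not well above background in enough mice to be tested.

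**Figure D3:**
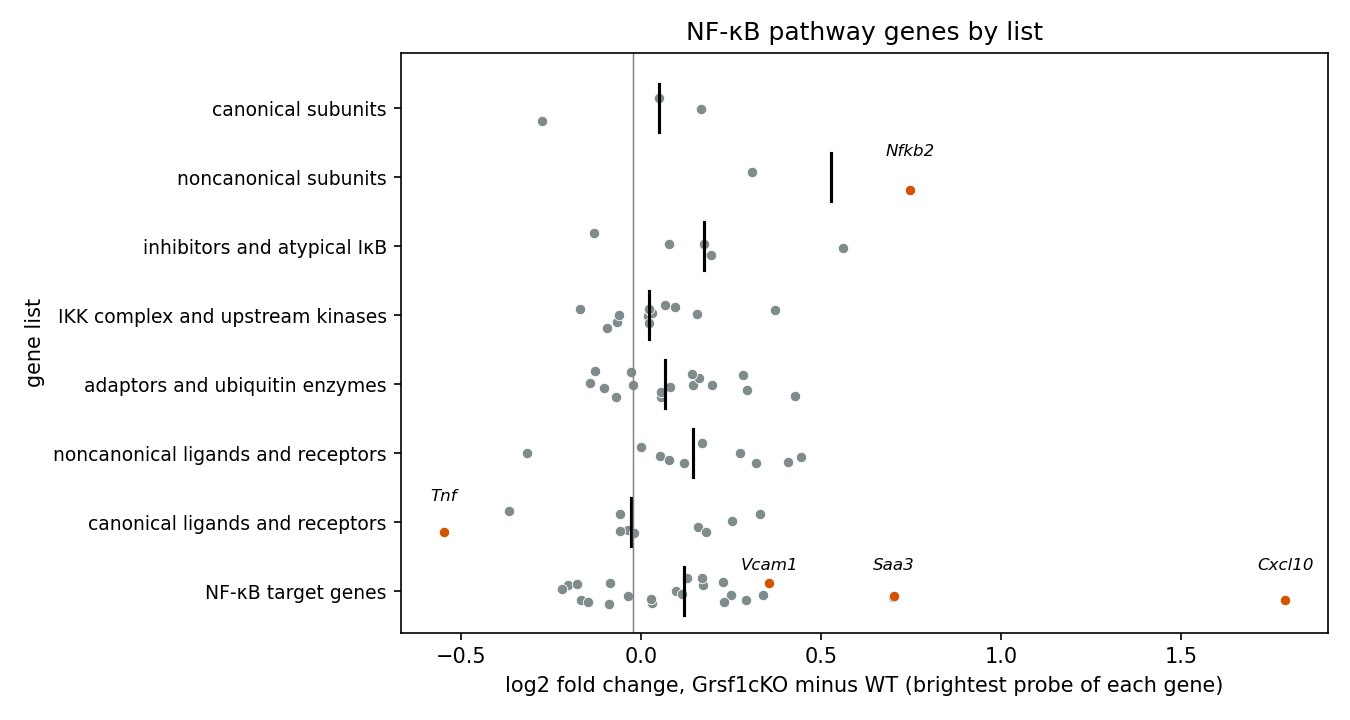
Log2 fold change of Grsf1cKO against WT for each tested gene of 8 lists, by its brightest probe, with orange points at an unadjusted limma *p* under 0.05, black bars at list medians and a gray line at the median of all genes (−0.02). *Nfkb2* (0.75), *Cxcl10* (1.79), *Saa3* (0.70) and *Vcam1* (0.36) lie to the right and *Tnf* (−0.55) to the left.

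Macrophages carry many of these genes, so their markers are given beside the noncanonical subunits. All 8 macrophage markers were well above background in all mice, and *Itgam* was the brightest. Their summed normalized signal was 55271, 56439 and 74770 in Grsf1cKO mice 1 to 3 and 56819, 66607 and 56653 in WT mice 1 to 3. Grsf1cKO 3 was the highest mouse, whereas Grsf1cKO 1, in which *Nfkb2* and *Nfkbie* were also high, was not high. Of the 8 markers, 7 had an estimate above 0, and *Itgam*, the exception and the largest part of the sum, was not high in Grsf1cKO 3 (14.94). *Cd68* read 11.80, 11.96 and 13.30 against 11.65, 11.85 and 11.57. Grsf1cKO 3 was the highest mouse for 7 of the 8 markers, among them *Adgre1* (11.62), *Csf1r* (14.19), *Lyz2* (11.33) and *Ptprc* (10.38), and by little for *Cd163*. Without Grsf1cKO 3 the log2 fold change of *Nfkb2* was 0.57. The part of macrophages in these values was not tested.

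The label of the tissue was checked too. All 12 markers of skeletal muscle fibers were well above background in every mouse, with *Tnnt3* the brightest, and their summed signal was between 4325300 and 4492900. *Myf5*, whose promoter drives Cre, was not well above background in any mouse.

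**Figure D4:**
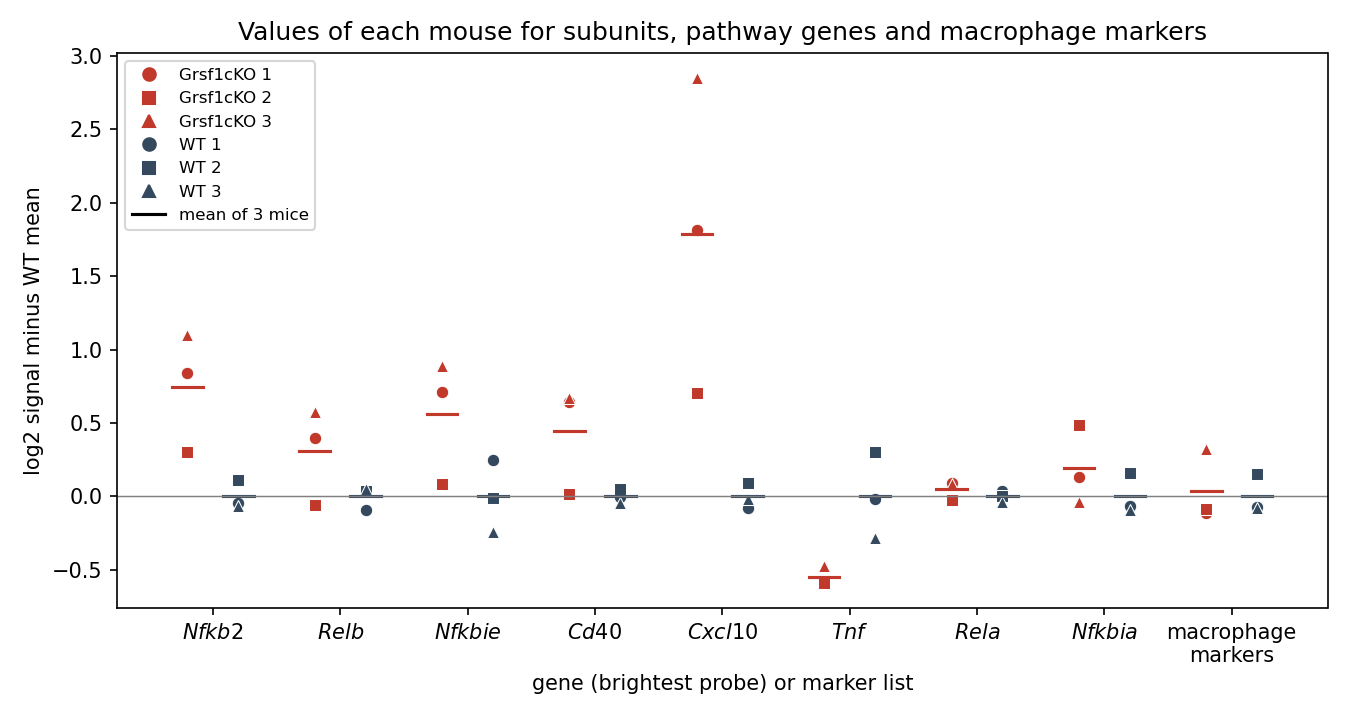
Log2 signal relative to the WT mean in each mouse for *Nfkb2*, *Relb*, *Nfkbie*, *Cd40*, *Cxcl10*, *Tnf*, *Rela* and *Nfkbia* (brightest probes) and for the summed signal of 8 macrophage markers, with a bar for the mean of 3 mice. Grsf1cKO 1 and Grsf1cKO 3 are high and Grsf1cKO 2 is near the WT mice for *Nfkb2*, *Relb*, *Nfkbie* and *Cd40*, where *Cd40* in Grsf1cKO 1 is high on the repeat array only, while the macrophage sum is highest in Grsf1cKO 3.

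Every Grsf1cKO array was on slide 2, as were WT 3 and the repeat of WT 1, while slide 1 held WT 2 and the first hybridization of WT 1. Within slide 2, the log2 fold change of *Nfkb2* was 0.78, and noncanonical minus canonical was 0.60. The slide as a block gives the same values by construction, since all Grsf1cKO arrays lie on slide 2, and so is no separate check.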

How the data were processed

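The authors deposited scanner output from Feature Extraction 12.0.3.1, which holds a linear intensity per spot, and a table of *z*-scores. Each deposited score is the log2 processed signal of a spot, centered and divided by the SD of its array, because scores rebuilt like this differed from those of the authors by at most 0.005. Quantile normalization and a *z*-test are the steps that the methods describe. After that normalization a *z*-score is the log2 signal on another scale, so the *z*-test was computed from log2 signals.

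From the processed signals, control spots were dropped and any spot with a non-uniformity or population outlier mark was removed. Quantile normalization covered the 8 arrays, and log2 signals were averaged per probe and then per mouse. A probe entered the limma fit (version 3.58.1, R 4.3.3) if it was well above background in 3 or more of the 6 mice and had values for 2 or more mice per genotype, and *p*-values were adjusted over all 38888 such probes. The number of arrays limits the precision. No non-control spot was saturated. The fits were tested on simulated data.

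Gene names came from RefSeq accessions (GRCm38.p6, 32994 of 56605 probes), used for names only, while the array files give positions in another build. A gene with several probes is represented by the brightest, and the other probes are given beside it for the members and for some other genes. Levels of different probes were not compared, except that marker signals were summed and the brightest marker named. Named genes are the members, *Grsf1*, *Cxcl10*, from each pathway list those with an unadjusted *p* under 0.05 and the 3 largest estimates, and the 5 most like *Nfkb2*. *Map3k14*, *Sharpin*, *Cflar*, *Sod2* and the markers named were chosen after their values were seen. The members and lists were chosen with earlier results of these data known. Alternatives covered normalization, background correction, detection, repeat arrays, slide, replicate number, probes per gene, the *z*-test and each mouse left out. Motifs were searched with Python 3.11.15.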

Additional observations from a re-analysis of the deposited data

How the results depend on the processing

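Of the 10 members, *Nfkb1*, *Rela*, *Rel*, *Nfkb2*, *Relb*, *Nfkbia*, *Nfkbib*, *Nfkbie* and *Nfkbiz* kept the direction of their brightest probe under every alternative run, and *Bcl3* kept it except without Grsf1cKO 3 (−0.12, against 0.32 without Grsf1cKO 2) and with the deposited scores (0.00). The log2 fold change of *Nfkb2* was 0.57 to 0.97 and noncanonical minus canonical 0.43 to 0.76. The methods' *z*-test called 379 probes in place of 3 with the fold cut and 109 with the cuts of the methods (chosen after seeing the data, without their variance filter), both with *Nfkb2* at 0.75 (Benjamini-Hochberg adjusted *p* = 0.0697). The dim second *Rela* probe turned to 0.19 with 75th percentile scaling, 0.12 with first arrays only, 0.057 with the slide as a block or slide 2 only, 0.13 without the repeat array of Grsf1cKO 1 (chosen after seeing the data), and −0.172 to 0.21 over mice left out. The second *Nfkbiz* probe turned to −0.029 with normexp, −0.036 with the deposited scores, −0.10 with first arrays only, −0.11 without that repeat array, and −0.065 to 0.12 over mice left out. The cause was not tested. With the replicate number as a block, 1 probe was called and *Grsf1* had the same log2 fold change of −2.19 but a limma adjusted *p* of 0.25, since the block leaves fewer degrees of freedom. The numbers were not taken as pairs, because same-numbered mice had correlations of their deviations of 0.232, 0.097 and 0.104, although each mouse correlated best with its own number, a hint from the data. Among member probes, the arrays of Grsf1cKO 1 differ most on *Nfkb1*, *Rel* and the second *Rela* and *Nfkbiz* probes. Counts of listed genes at an unadjusted limma *p* under 0.05 were 0 to 1 for kinases (0 as reported), 0 to 1 for adaptors (0), 0 to 2 for noncanonical (0) and 0 to 2 for canonical ligands and receptors (1), and 2 to 5 for target genes (3).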

Other observations

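The other marker lists held no gene whose brightest probe was at a limma *p* under 0.05 in either direction (0 in each of the skeletal muscle fiber, macrophage, T and B lymphocyte, neutrophil, endothelial, fibroblast, adipocyte, satellite cell and red blood cell lists), and the summed signal of each overlapped between genotypes. Their median log2 fold changes were 0.01, 0.16, −0.01, −0.07, −0.08, 0.12, −0.14, 0.10 and −0.14 in that order. *Myh7*, the myosin heavy chain of slow fibers, read 11.35, 9.46 and 9.39 in Grsf1cKO mice 1 to 3 and 9.27, 11.38 and 11.33 in WT mice 1 to 3. It was thus high in 1 Grsf1cKO mouse and low in 1 WT mouse, and its order over the mice was unlike that of *Nfkb2*, since it was low in Grsf1cKO 3. The neutrophil gene *S100a9* was highest in Grsf1cKO 3 (10.04) and lowest in Grsf1cKO 2 (6.97), with WT values of 7.74, 9.22 and 8.67.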
